A study of Arabidopsis thaliana with 7 samples.

Results

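Core histones are the proteins that DNA is wound around, and 38 Arabidopsis thaliana genes that encode them were followed in seedlings with and without 2 chromatin genes affected. The genes were chosen by their annotated class, though with earlier results of these data known. They were 5 genes of H3.1, 3 of H3.3, the centromeric H3 gene HTR12, 8 of H4 and 9 of H2B. The others were 4 of canonical H2A, 2 of H2A.X, 3 of H2A.W and 3 of H2A.Z. All 38 were among the 32548 genes of the count table, and all 38 were among the 29226 genes expressed enough to be tested. RNA was taken from whole seedlings at 10 days, grown on agar with MS salts at 22 °C under 16 h of light and 8 h of dark. There were 2 RNA-seq libraries of Col-0 wild type (WT) and 2 of the hon45 mutant, whose name points to HON4 and HON5 and whose alleles the labels do not give further. Nothing says that the 2 libraries of a genotype came from separate cultures, so p-values measure the spread between these samples, which may be technical. The 3 chromatin immunoprecipitation samples of the series, 1 from WT and 2 from plants with a HON5-Myc transgene, were not analysed here.

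A nucleosome holds pairs of H2A, H2B, H3 and H4, and cells need most new histone protein in S phase, when DNA is copied. H3.1 and H4 are deposited behind the replication fork by the CAF-1 chaperone, whereas H3.3 is made throughout the cell cycle and enters active genes, with HIRA as a main chaperone. Among the variants, CENH3 marks centromeres, H2A.X is phosphorylated at DNA breaks, H2A.W lies in heterochromatin, and H2A.Z, placed by the SWR1 complex, sits at gene starts and over the bodies of responsive genes. HON4 and HON5 carry a globular domain like that of the linker histone H1 together with AT-hooks, which bind AT-rich DNA.

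Libraries held 53858439 to 63543079 counts, of which the 38 histone genes took 0.269% to 0.287%. The mutated genes were checked first, and both fell. HON5 stood at 97.7 and 91.7 CPM (counts scaled to a common library size) in WT 1 and WT 2 and at 14.0 and 15.9 CPM in hon45 1 and hon45 2, and HON4 at 99.3 and 104 CPM against 39.2 and 41.0 CPM. On the log2 scale hon45 differed from WT by −2.66 (SE 0.11, adjusted p = 3.09e-12) for HON5 and by −1.34 (SE 0.10, adjusted p = 5.42e-08) for HON4. Here and in what follows the adjusted p is that of the quasi-likelihood test in edgeR, adjusted over all tested genes after Benjamini and Hochberg. HON4 overlaps the counted gene AT3G18030. The seedling label was checked against markers: all 6 leaf photosynthesis genes and all 8 root genes of the lists used were expressed. These are whole seedlings, so that fewer cells of a type and less RNA per cell cannot be told apart in any value given here.

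Core histone transcripts differed little between the genotypes. Of the 38 genes 1 rose in hon45, the H4 gene HIS4, and 0 fell at an adjusted p under 0.05 (edgeR quasi-likelihood test). Among all tested genes 4.1% passed that threshold, 2.48% as higher and 1.63% as lower, and 1 of 38 histone genes is 2.63%, a share too near these for anything to be read from it. At an unadjusted p under 0.05, 5 histone genes passed in that test, or 13.2%, against 17.9% of all tested genes. These were HIS4, the H3.1 gene AT3G27360 and the H2B gene HTB2, all higher in hon45, and the H2A.W gene HTA12 and the H2A.Z gene HTA9, both lower. The median log2 fold change over the 38 genes was 0.04, beside −0.04 over all tested genes, and 21 lay above 0 and 17 below it.

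Most of the fitted intervals were narrow, but they describe the spread between these 4 libraries, which may be technical, and do not bound the effect of genotype. They also borrow the spread of other genes, since the design leaves 2 residual degrees of freedom. Single estimates moved with the processing, for HTB2 from 0.12 to 0.45 on the log2 scale over the alternatives. For 34 of the 38 genes the 95% interval of the fold change lay within 1.5-fold either way, and for 37 within 2-fold. The standard errors of the log2 fold changes ran from 0.09 to 0.24, with a median of 0.10. Across the genes that did not pass, the intervals reached down to 0.499-fold, for the weakly expressed H2B gene AT3G09480, and up to 1.69-fold, for AT3G27360. In 15 histone genes, or 39.5%, both hon45 libraries lay above both WT libraries, which held for 23.1% of all tested genes. In 6, or 15.8%, both hon45 libraries lay below both WT libraries, against 26.2% of all tested genes, and in the other 17 the genotypes overlapped.

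**Figure D1:**
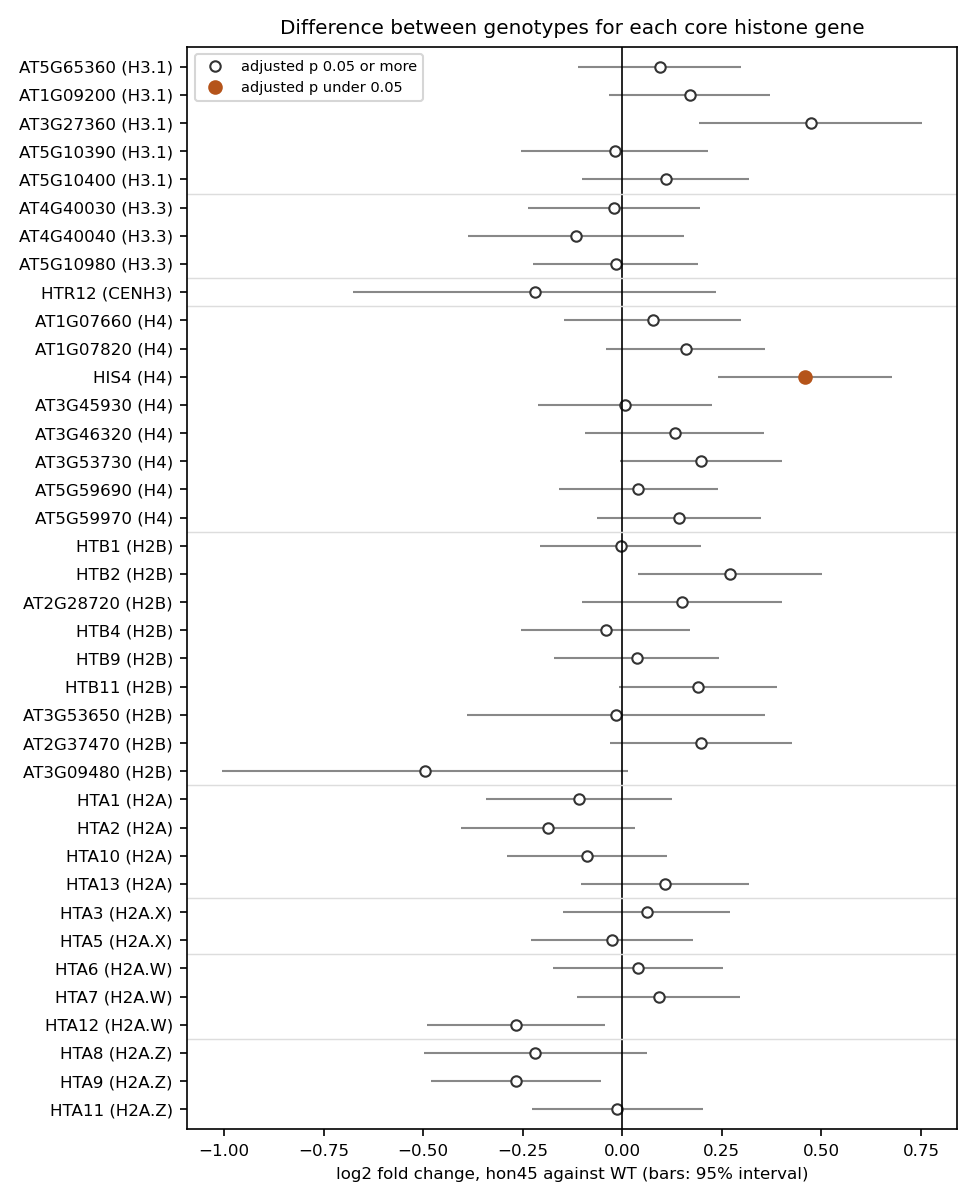
Log2 fold change of each of the 38 core histone genes, hon45 against WT, with lines for the 95% interval; the filled point has an adjusted p under 0.05 in the edgeR quasi-likelihood test (2 libraries per genotype). HIS4 is the filled point, at 0.46, and all 8 H4 genes lie to the right of 0.

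Transcript levels per length, in FPKM (fragments per kilobase of transcript, scaled to library size), spanned 252-fold over the set. The H3.3 gene AT4G40040 was highest at a mean of 1076 FPKM over the 4 libraries, and the centromeric HTR12 lowest at 4.28 FPKM. Next below AT4G40040 came the other H3.3 genes and the H2B gene HTB4, at 446, 376 and 357 FPKM for AT4G40030, AT5G10980 and HTB4. AT5G10980 and HTB4 lay close, at 380 against 374 FPKM in WT 1, and AT5G10980 was the higher of the pair in each of the 4 libraries. Within classes the spread was widest for H2B, at 60.4-fold between its highest and lowest gene, and near 10-fold for H4 (10.2), H2A.Z (10.4) and H3.1 (9.95).

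**Figure D2:**
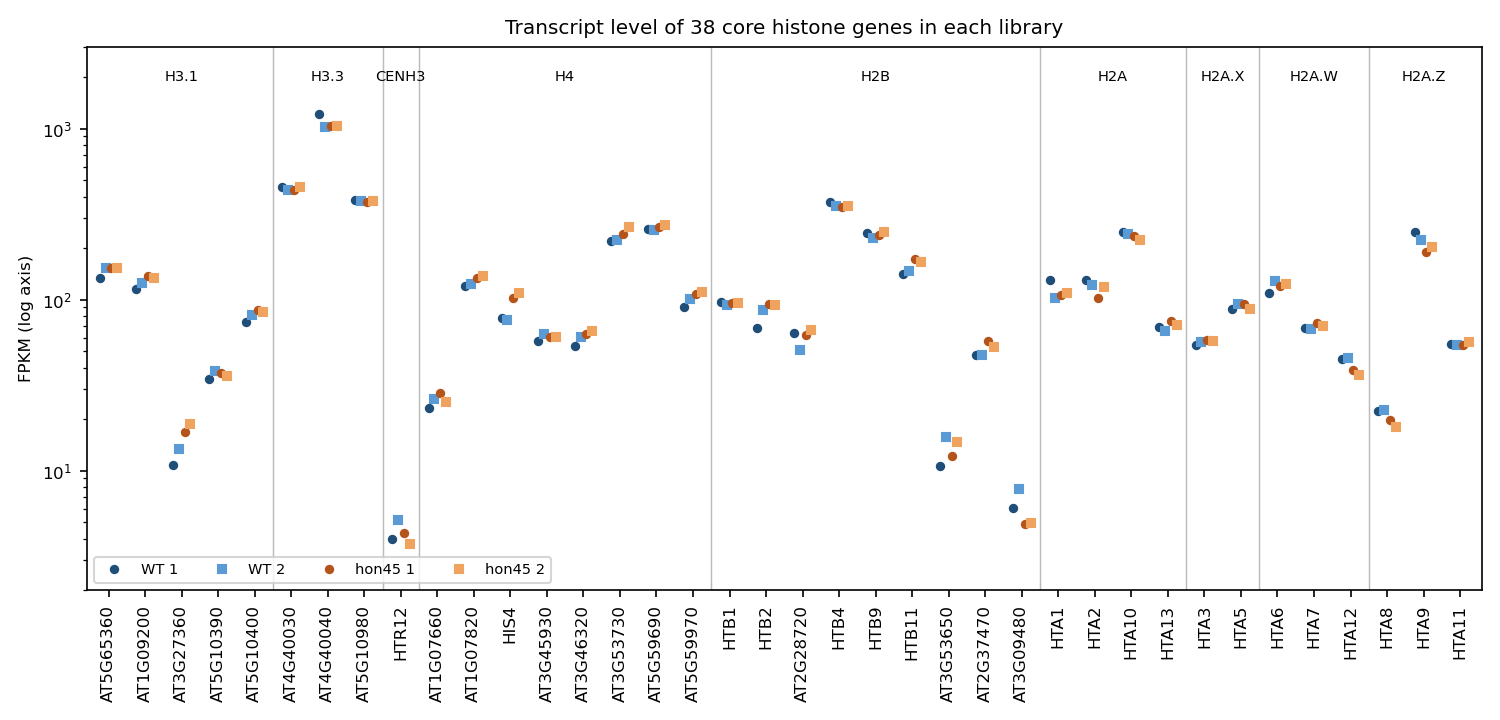
FPKM of each of the 38 genes in each of the 4 libraries, on a log axis, grouped by histone class; circles and squares are libraries 1 and 2, blue WT and orange hon45. The H3.3 gene AT4G40040 is the highest and HTR12, the CENH3 gene, the lowest, and the 4 libraries of a gene lie close together compared with the spread between genes.

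H3.1 is the replication-coupled form of H3, and its 5 genes did not pass the test, although 4 of the 5 lay above 0. AT3G27360 came closest. It stood at 8.57 and 10.2 CPM in WT 1 and WT 2 and at 12.3 and 13.8 CPM in hon45 1 and hon45 2, with both hon45 libraries above both WT libraries. Its log2 fold change was 0.47 (SE 0.13, 95% interval 0.19 to 0.75, edgeR adjusted p = 0.0514), just outside the threshold, and it passed under 9 of the 18 alternatives that could be computed for it. With single libraries left out it ranged from 0.36, without WT replicate 1, to 0.61, without WT replicate 2. Of these fits it passed only in that without WT replicate 2, where far more genes passed over all genes than in the main test. Without hon45 replicate 1 or 2 it stood at 0.59 and 0.39, in fits where far fewer genes passed over all genes. AT3G27360 is the lowest of the H3.1 genes at 14.9 FPKM and overlaps AT3G27380, which had 82.4 and 78.2 CPM in WT and 89.8 and 90.2 CPM in hon45. How reads in a stretch shared by overlapping genes were assigned is not given in the sources, so the value of AT3G27360 is uncertain; the 2 genes share 1 locus in the FPKM files (TAIR10 chromosome 3, 10129105 to 10132760).

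The other H3.1 genes moved less. AT1G09200 had 42.6 and 44.7 CPM in WT and 49.1 and 49.0 CPM in hon45, with no overlap between genotypes and a log2 fold change of 0.17 (SE 0.10, edgeR adjusted p = 0.379). AT5G65360, the highest H3.1 gene at 148 FPKM, had 63.3 and 70.6 CPM against 70.0 and 73.0 CPM, so that its genotypes overlapped. The neighbours AT5G10390 and AT5G10400, 738 bases apart on chromosome 5, had log2 fold changes of −0.02 and 0.11.

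H3.3 accounts for most H3 transcript in these seedlings, and none of its 3 genes was called. AT4G40040 stood at 756 and 622 CPM in WT and 625 and 646 CPM in hon45; WT 1 was above the other 3 libraries, which lay close together. Its log2 fold change was −0.12 (SE 0.13, edgeR adjusted p = 0.70). AT4G40030, which lies 214 bases away from it, and AT5G10980 stood at −0.02 each, with genotypes that overlapped. HTR12 (AT1G01370; chromosome 1, 143564 to 145684), the CENH3 gene, is known to be expressed in dividing cells and had 3.29 and 4.29 CPM in WT against 3.71 and 2.82 CPM in hon45. Its libraries overlapped, at a log2 fold change of −0.22 (SE 0.22, 95% interval −0.68 to 0.23, adjusted p = 0.655 in that test), which spans 0.626-fold to 1.18-fold and is the widest after that of AT3G09480.

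H4 has no variants in the set, and its 8 genes all lay above 0, from 0.01 to 0.46. HIS4 (AT2G28740; chromosome 2, 12329488 to 12329995) rose. It had 21.8 and 20.7 CPM in WT and 28.1 and 30.2 CPM in hon45, or 78.2 and 76.0 FPKM against 102 and 109 FPKM. Both hon45 libraries lay above both WT libraries on either scale, and the log2 fold change from counts was 0.46 (SE 0.10, 95% interval 0.24 to 0.68, edgeR adjusted p = 0.0176), which is 1.37-fold. On log2(FPKM + 1) the difference was 0.45 and did not pass (limma-trend adjusted p = 0.0719), in a test that called 0.621% of 19493 genes. HIS4 kept its call in 14 of 19 alternatives. It was not called in the FPKM settings, of which that without a filter called 0 genes higher and 0 lower over all genes. Nor was it called without hon45 replicate 1, at a log2 fold change of 0.55, or without hon45 replicate 2, at 0.41. In these 2 fits far fewer genes passed over all genes than in the main test.

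Among the other 7 H4 genes none was called. In 5 of them both hon45 libraries lay above both WT libraries, which held for 23.1% of all tested genes. Where reads match several copies these 5 are not separate observations. AT3G53730 had 67.3 and 67.2 CPM in WT and 73.0 and 81.1 CPM in hon45, differing by 0.20 on the log2 scale (SE 0.10, edgeR adjusted p = 0.299). AT1G07820 stood at 0.16, AT5G59970 at 0.14, AT3G46320 at 0.13 and AT5G59690, the most abundant H4 gene at 264 FPKM, at 0.04. In AT1G07660 and AT3G45930 the genotypes overlapped, at 0.08 and 0.01. H4 genes encode the same protein from closely similar coding sequences, as do H3.1 genes, and how reads that match several copies were handled is not given in the sources used here, so that the split of reads among copies is uncertain. The summed CPM of the class does not depend on that split as long as such reads were kept, and came to 346.8 and 355.6 in WT and to 378.5 and 393.3 in hon45; the summed FPKM does depend on it, since the copies differ in length.

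H2B, which pairs with H2A, had 9 genes, 5 above 0 and 4 below, and none was called. HTB2 (AT5G22880; chromosome 5, 7651957 to 7652622) had the smallest p of the class. Its levels were 28.4 and 35.6 CPM in WT and 38.4 and 39.0 CPM in hon45. Both hon45 libraries were the higher ones, but WT 2 was closer to them than to WT 1, and the log2 fold change was 0.27 (SE 0.11, edgeR adjusted p = 0.195). That value follows the WT libraries: it was 0.12 without WT replicate 1 (adjusted p = 0.846 in that test), against 0.45 without WT replicate 2 (adjusted p = 0.00107), the 1 alternative in which HTB2 passed. The fit without WT replicate 2 called 2229 genes higher and 1607 lower over all genes, far more than the main test. HTB11 (AT3G46030) at 0.19 and AT2G37470 at 0.20 also had both hon45 libraries above both WT libraries.

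AT3G09480 is the lowest H2B gene, at 5.91 FPKM, and was the member furthest below 0. It had 2.55 and 3.06 CPM in WT and 1.99 and 2.01 CPM in hon45, so that the genotypes did not overlap, and a log2 fold change of −0.50 (SE 0.24, edgeR adjusted p = 0.294). The abundant H2B genes stayed near 0. HTB4 (AT5G59910) had 204 and 189 CPM in WT and 187 and 195 CPM in hon45, and HTB9 (AT3G45980), which overlaps AT3G07315 and AT3G45970, had 144 and 133 CPM against 139 and 145 CPM. Both overlapped between genotypes, as did HTB1 (AT1G07790), AT2G28720 and AT3G53650.

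Canonical H2A had 3 of 4 genes below 0 and none called. HTA2 (AT4G27230) had the smallest p of the class, with 61.1 and 55.7 CPM in WT and 47.2 and 55.4 CPM in hon45. Its WT 2 and hon45 2 libraries nearly met, and the log2 fold change was −0.19 (SE 0.10, edgeR adjusted p = 0.365). HTA10 (AT1G51060), the most abundant H2A gene at 237 FPKM, stood at −0.09 and HTA1 (AT5G54640), known from studies of Agrobacterium transformation, at −0.11. HTA13 (AT3G20670), which overlaps AT3G20680, stood at 0.11.

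The H2A.X genes stood near 0, HTA3 (AT1G54690) at a log2 fold change of 0.06 (SE 0.10, edgeR adjusted p = 0.809) and HTA5 (AT1G08880) at −0.02. HTA3 had 29.2 and 30.1 CPM in WT against 30.8 and 31.0 CPM in hon45, and it overlaps AT1G07983 and AT1G54680, so that its value is uncertain for the same reason. The 3 heterochromatin H2A.W genes went different ways. HTA12 (AT5G02560) had 22.5 CPM in both WT libraries and 19.2 and 18.2 CPM in hon45, apart from WT, with a log2 fold change of −0.27 (SE 0.11, 95% interval −0.49 to −0.04, edgeR adjusted p = 0.183). By RefSeq spans HTA12 overlaps AT5G02570, which had 0.998 and 0.833 CPM in WT and 1.19 and 0.682 CPM in hon45. By the coordinates of the FPKM values they do not overlap, since HTA12 ends at 576606 and AT5G02570 starts at 576742. HTA6 (AT5G59870) and HTA7 (AT5G27670), both more abundant, stood at 0.04 and 0.09, and the H2A.W genes summed to 222 and 241 FPKM in WT and to 232 and 229 FPKM in hon45.

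H2A.Z, the variant placed by SWR1, had all 3 genes below 0, again with none called. HTA9 (AT1G52740) provides most H2A.Z transcript at 215 FPKM, beside 55.0 FPKM for HTA11 (AT3G54560) and 20.6 FPKM for HTA8 (AT2G38810). HTA9 had 135 and 119 CPM in WT and 101 and 110 CPM in hon45, so that the genotypes did not overlap. Its log2 fold change was −0.27 (SE 0.10, 95% interval −0.48 to −0.05, edgeR adjusted p = 0.161). It passed in 1 of 18 alternatives, at −0.35 without WT replicate 2 (adjusted p = 0.00649 in that test), and stood at −0.17 without WT replicate 1 (adjusted p = 0.594) and −0.17 without hon45 replicate 1 (adjusted p = 0.576). With the gene-length trend removed it stood at −0.18 and −0.15. HTA9 overlaps AT1G52750, at 8.28 and 9.60 CPM in WT and 8.69 and 8.64 CPM in hon45. HTA8 had 9.81 and 9.79 CPM in WT and 8.62 and 8.22 CPM in hon45, also apart, at −0.22 (SE 0.13, adjusted p = 0.421 in that test). HTA11 stood at −0.01, with 25.8 and 24.9 CPM in WT and 24.8 and 25.4 CPM in hon45.

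Summed over their genes, the histone classes leaned in different directions, by small amounts. The exact permutation test of 2 libraries against 2 cannot give a two-sided p below 0.333, so these sums and their ratios are descriptions. H4 summed to 915 ± 18.2 FPKM (SD, n = 2) in WT and 1026 ± 28.7 FPKM in hon45, a ratio of 1.12. H3.1 went from 389 ± 29.3 to 429 ± 2.94 FPKM, a ratio of 1.10, and H2B from 1040 ± 18.7 to 1092 ± 6.44 FPKM, a ratio of 1.05. In these 3 classes both hon45 libraries lay above both WT libraries. H2A.Z summed to 312 ± 19.2 FPKM in WT and 270 ± 8.70 FPKM in hon45, a ratio of 0.866, and canonical H2A to 554 ± 31.6 against 521 ± 1.96 FPKM, a ratio of 0.941. Both hon45 libraries lay below both WT libraries in these. For canonical H2A the margin was narrow: WT 1 stood at 576 FPKM, but WT 2 at 531 FPKM lay near the 519 and 522 FPKM of hon45. By CPM its WT 2 and hon45 2 sums nearly met, at 228.3 and 228.2. H3.3, CENH3, H2A.X and H2A.W overlapped between genotypes, and so did the sum over all 38 genes, at 5650 and 5420 FPKM in WT against 5538 and 5612 FPKM in hon45.

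**Figure D3:**
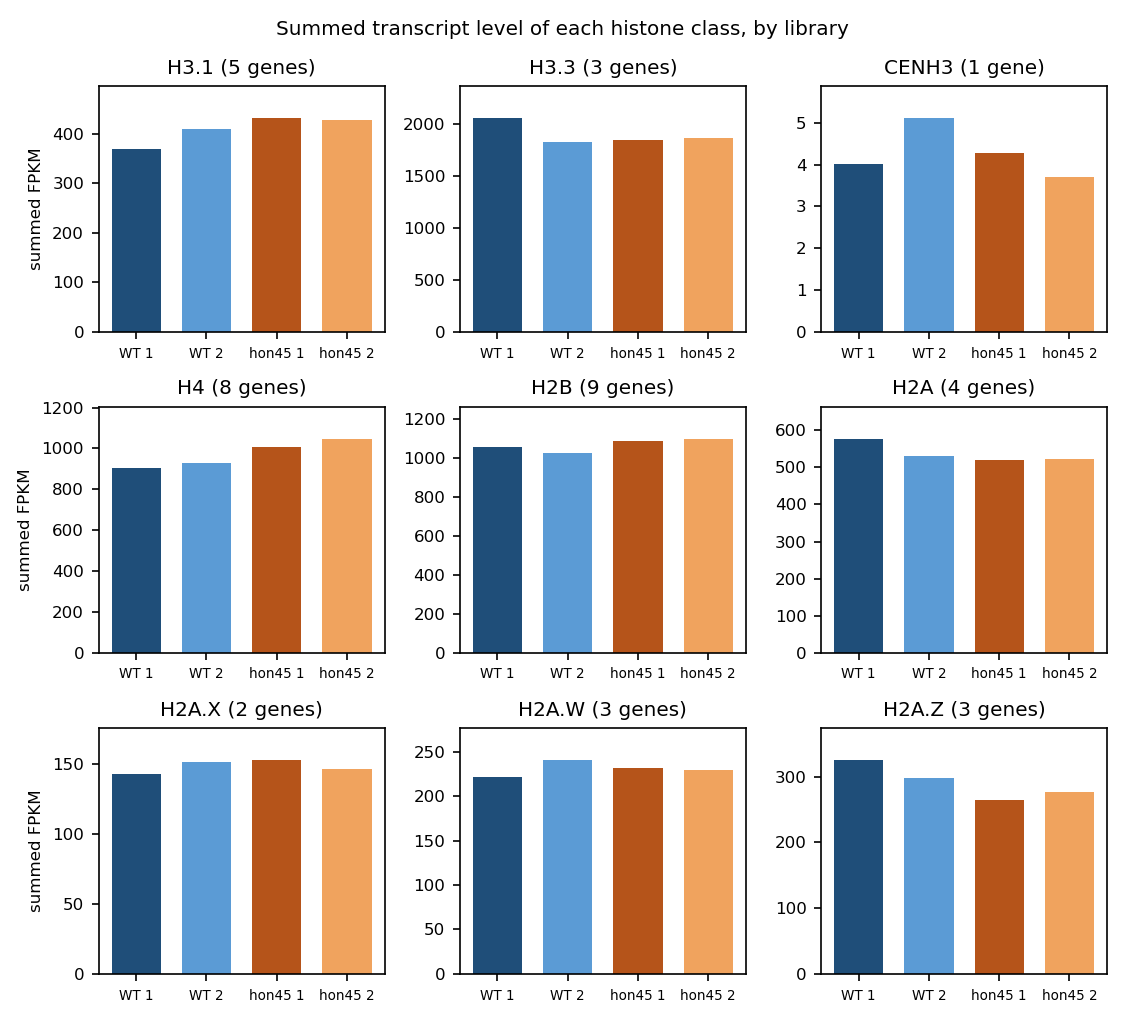
Summed FPKM of the genes of each histone class in each library, with an axis for each class that starts at 0; blue bars are WT 1 and 2, orange bars hon45 1 and 2. H4, H3.1 and H2B are higher in both hon45 libraries, and H2A.Z and H2A lower, H2A by a narrow margin from WT 2. The other classes overlap.

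The ratios between partners differed along with these sums. The H2A family summed to 1.20 and 1.19 times H2B in WT and to 1.07 times H2B in each hon45 library, and by CPM to 1.09 in each WT library against 0.981 and 0.985. Without H2A.Z the ratio came to 0.892 and 0.899 in WT and 0.831 and 0.818 in hon45, so that H2A.Z was not the whole of the difference. H3 summed to 2.69 and 2.42 times H4 in WT and 2.27 and 2.19 times H4 in hon45. Within the H3 family H3.1 took 15.2% and 18.3% in WT and 18.9% and 18.6% in hon45; WT 1 stood apart and WT 2 lay next to the hon45 libraries. H2A.Z made up 25.7% and 24.4% of H2A family transcript in WT and 22.6% and 23.5% in hon45. These shares are of transcript and say nothing about protein in chromatin, and none was tested.

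Neighbouring histone genes were compared by the sign of their change. Within 20 kb of each other lay 8 neighbouring pairs, of which 4 had log2 fold changes of the same sign. Every pair of opposite sign held a gene close to 0: HTB1 at −0.0045, AT5G10390 at −0.02 or HTB4 at −0.04. These genes changed sign in 11, 10 and 4 of 19 alternatives, so the signs cannot tell whether neighbours share a direction. HIS4 lies 1809 bases from the H2B gene AT2G28720, which had 29.8 and 23.0 CPM in WT and 27.6 and 30.9 CPM in hon45. WT 2 was lowest there and the other 3 libraries were close, at a log2 fold change of 0.15 (SE 0.12, edgeR adjusted p = 0.56). Histone genes are also short: the lengths implied by counts and FPKM ran from 276 to 934 bases with a median of 462.5, against a median of 1384 over tested genes. With a trend of fold change on gene length removed, the median over the 38 genes was 0.12 or 0.14, depending on the genes the trend was fitted on, and that over all genes in these fits −0.07 or close to 0.

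**Figure D4:**
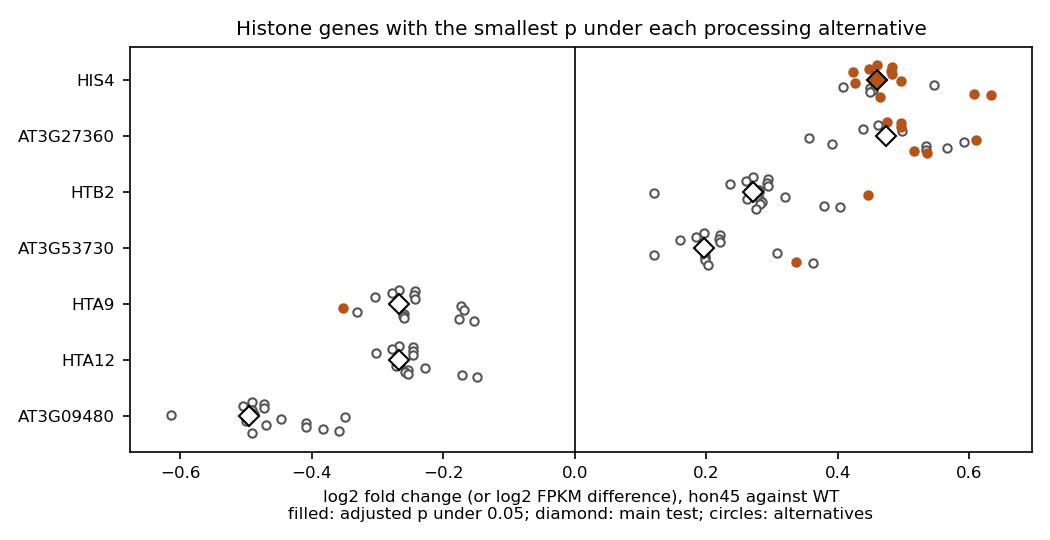
Log2 fold change of 7 histone genes in the main test (diamonds) and in each alternative (circles), hon45 against WT; filled symbols have an adjusted p under 0.05. HIS4 and AT3G27360 lie between 0.36 and 0.63 throughout, with calls in part of the alternatives, and HTB2, AT3G53730 and HTA9 pass in 1 alternative each.

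Genes that act with core histones were read in the same test, from lists chosen for their known roles. Of 19 histone chaperone and assembly genes 2 rose and 0 fell, and 14 lay above 0. Their median log2 fold change was 0.15, beside −0.04 over all tested genes. The share of all tested genes above 0 was not counted, here or for the lists below. Among all tested genes 2.48% were called higher and 1.63% lower, and the counts of each list are to be read beside these shares. The lists are short, and no list was tested as a set. NAP1;3, a chaperone of H2A and H2B, went from 16.9 and 20.3 CPM in WT to 26.6 and 27.9 CPM in hon45, 0.55 higher on the log2 scale (SE 0.11, edgeR adjusted p = 0.00981). SPT16, the large subunit of the FACT complex, which moves H2A and H2B aside for polymerases, went from 33.3 and 33.2 CPM to 42.8 and 44.7 CPM, 0.40 higher on the log2 scale (SE 0.10, adjusted p = 0.0259 in that test). In both genes the hon45 libraries lay above both WT libraries. Neither passed without hon45 replicate 1 (0.62 and 0.46 on the log2 scale) or without hon45 replicate 2 (0.52 and 0.37), where far fewer genes passed over all genes. Nor did they pass in the 3 FPKM settings, of which that without a filter called 0 genes higher and 0 lower over all genes. With the gene-length trend removed SPT16 did not pass either, at 0.22 with the trend from genes at 5 CPM (adjusted p = 0.154) and 0.42 with that from 1 CPM (adjusted p = 0.0658). The CAF-1 genes FAS1, FAS2 and MSI1 and the H3.3 chaperone gene HIRA were not called, at 0.23, 0.05, −0.06 and 0.04. Of 6 genes for the deposition of H2A.Z and H2A.W by SWR1 and DDM1 0 rose and 0 fell; PIE1, the SWR1 motor, stood at 0.25, and DDM1 at 0.34 (adjusted p = 0.223 in that test).

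Lists that mark dividing cells and tissues give the setting in which histone levels were read. Their calls too stand beside 2.48% of all tested genes called higher and 1.63% called lower. Of 20 S phase and DNA replication genes 1 rose and 0 fell, and 14 lay above 0 with a median of 0.10. The gene that rose was MCM5, of the replicative helicase, with 5.95 and 6.02 CPM in WT and 9.52 and 8.92 CPM in hon45, 0.62 higher on the log2 scale (SE 0.14, edgeR adjusted p = 0.0192). MCM5 too lost its call without hon45 replicate 1 (0.61) and without hon45 replicate 2 (0.67), where far fewer genes passed over all genes. It also lost it in the 3 FPKM settings, and with the gene-length trend from genes at 5 CPM removed (0.50, edgeR adjusted p = 0.0565). The S phase list summed to 144 and 160 FPKM in WT and 171 and 169 FPKM in hon45. The sums of H4, H3.1 and H2B were also higher in both hon45 libraries, whereas that of canonical H2A was lower and that of H3.3 overlapped. The part of the S phase list in the histone values was not tested. Of 16 genes of G2 and mitosis 0 rose and 1 fell, the Aurora kinase gene AUR2, from 14.0 and 14.5 to 7.81 and 7.66 CPM (log2 fold change −0.88, SE 0.13, adjusted p = 0.000648 in that test). AUR2 overlaps AT2G25890, and the list summed to 109 and 111 FPKM in WT and 115 and 110 FPKM in hon45.

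Of 8 meristem markers 1 rose, ANT, a regulator of organ growth, at 0.53 (SE 0.14, edgeR adjusted p = 0.0386), and 4 lay below 0. ANT passed in 9 of 19 alternatives, and not without WT replicate 1 (0.36). Nor did ANT pass without hon45 replicate 1 (0.49) or hon45 replicate 2 (0.61), where far fewer genes passed over all genes. The list summed to 13.7 and 14.9 FPKM in WT and 19.4 and 17.4 FPKM in hon45. Of these sums ANT made up 3.98 and 5.52 FPKM in WT and 7.75 and 7.03 FPKM in hon45. WUS, CLV3 and WOX5 were under 1 CPM in every library, and no listed marker was at 0. Of 6 leaf photosynthesis markers 0 rose and 0 fell, and all 6 lay above 0, with sums of 32267 and 38006 FPKM in WT and 39591 and 39890 FPKM in hon45. Of 8 root markers 0 rose and 5 fell, where 1.63% of all tested genes were called lower. The 5 had log2 fold changes from −0.61 to −0.47: the root hair expansin genes EXP18 and EXP7, the aquaporin gene TIP2;3, the root hair wall protein gene PRP3 and CASP1 of the endodermis. EXP18, with the smallest p, went from 35.9 and 30.1 CPM to 21.3 and 22.0 CPM (edgeR adjusted p = 0.00391), whereas SCR and SHR, regulators of the endodermis, stood at 0.07 and 0.14. None of the 5 passed without hon45 replicate 2, at log2 fold changes from −0.66 for PRP3 to −0.42 for TIP2;3. TIP2;3 alone passed without hon45 replicate 1, at −0.70. In both of these fits far fewer genes passed over all genes than in the main test. Over all alternatives each of the 5 passed in 12 to 15 of 18 or 19. EXP18, EXP7 and CASP1 overlap the counted genes AT1G62978, AT1G12570 and AT2G36090, so that their values are uncertain. The root list summed to 2560 and 2803 FPKM in WT and 2959 and 2941 FPKM in hon45, a sum made up mostly by PYK10. The part of these tissue markers in the histone values was not tested.

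**Figure D5:**
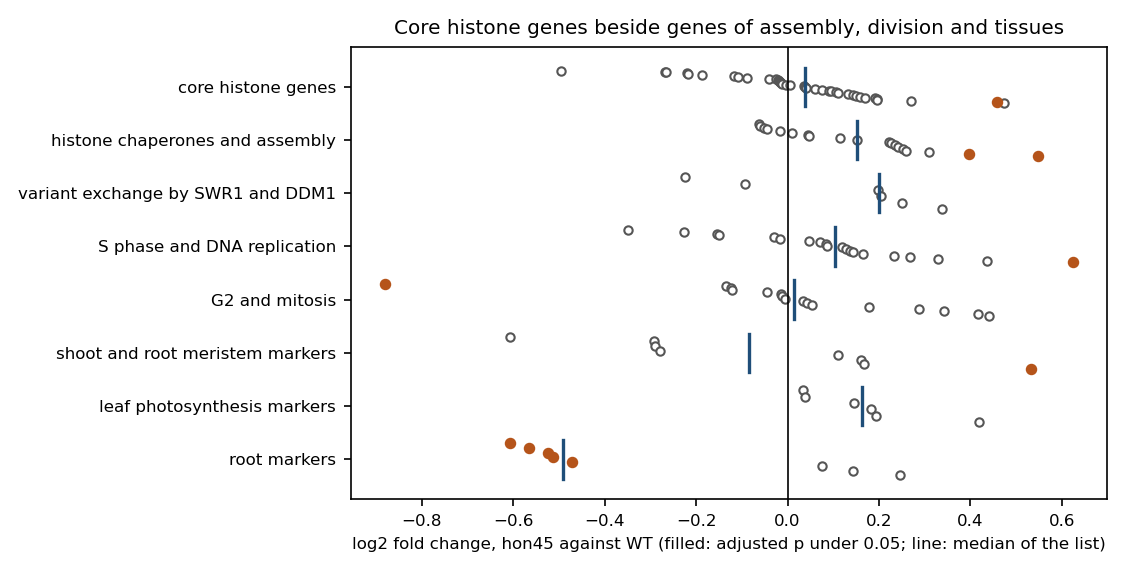
Log2 fold changes, hon45 against WT, of the 38 core histone genes and of 7 lists of assembly, division and tissue genes; each point is a gene, filled where its adjusted p is under 0.05 in the edgeR quasi-likelihood test, and the line is the list's median. Of the histone genes 1 is filled, HIS4, and 5 of 8 root markers are filled on the left.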

How the data were processed

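RNA-seq of 4 seedling libraries was read from raw whole-number counts per gene, deposited not normalized, and from FPKM values deposited by the authors, 1 file per library. The submitters' processing notes name HISAT2, edgeR, Bowtie2, deepTools and TAIR10; the counting program, its use of strand and its handling of reads that match several copies are not stated in these sources. Coordinates are those of the FPKM files, with 1 added to the start, and overlaps come from RefSeq spans. In R 4.3.3, edgeR 4.0.16 fitted the counts of all 29226 genes kept by filterByExpr with TMM scaling and the newer quasi-likelihood method (glmQLFit, glmQLFTest), with 2 residual degrees of freedom and Benjamini-Hochberg adjustment; calls of the newer and older methods were known before the newer was kept. FPKM was tested with limma 3.58.1 on log2(FPKM + 1), after keeping genes that reached 1 FPKM in at least 2 libraries, a scale that understates changes of low genes. Each SE was derived from a gene's log2 fold change and its F statistic. The steps were tested on simulated data. Every histone gene is named, with full statistics for each gene called and for the smallest p in each class, plus up to 3 called genes of each list; other genes with statistics were chosen after their values were seen. The histone genes and lists were chosen with earlier results of these data known. Alternatives were RLE size factors, library totals, other count filters, DESeq2 1.42.0, the exact test, limma-voom, the replicate number as a block, leaving out single libraries, other FPKM settings, a gene-length trend removed, overlapping genes left out and, chosen after seeing the data, the older quasi-likelihood method. No sequences are printed.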

Additional observations from a re-analysis of the deposited data

How the results depend on the processing

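The count of histone genes higher in hon45, 1 in the main test, was 2 with the older quasi-likelihood method, RLE size factors, no count filter, the edgeR exact test, limma-voom and the gene-length trend fitted on genes from 1 CPM, where AT3G27360 joined HIS4. It was 3 with the gene-length trend fitted on genes from 5 CPM, where AT3G53730 passed too (0.34, adjusted p = 0.042), and 0 with FPKM at a pseudocount of 1, at a pseudocount of 0.1 or without a filter. It stayed at 1 with DESeq2, library totals, a minimum of 5 CPM (36 of the 38 genes tested) and overlapping genes left out (32 tested). FPKM without a filter called 0 genes higher and 0 lower over all genes. It missed HON4 and HON5 as well, so its 0 says nothing about histone genes. With 1 library left out, the log2 fold change of HIS4 ran from 0.41 to 0.55 and that of AT3G27360 from 0.36 to 0.61. HTB2 and HTA9 passed without WT replicate 2 only, where far more genes passed over all genes than in the main test. Without either hon45 replicate no histone gene passed, but far fewer genes passed over all genes. Calls gained or lost in these fits are to be read beside that. A fit left with 1 library of a genotype assumes that it varies like the other genotype. With a replicate block 2 histone genes were higher and 0 lower, and over all genes 1119 were higher and 648 lower. The deviations of same-numbered libraries correlated at 0.029 over 22801 genes, so no shared effect of the replicate number was seen. Whether same-numbered samples were grown or prepared together cannot be told from that value. Of the 38 genes 15 changed sign in at least 1 alternative, all of them within 0.15 of 0 on the log2 scale in the main test, and 23 did not. The cause of these shifts was not tested. With 2 libraries per genotype, differences under about 1.5-fold in single genes are near the limit of the test, and more so for HTR12 and AT3G09480, at 115 counts or more per library.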
